A study of Mus musculus with 2 samples.

Results

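ATF4 occupancy at ion channel genes was examined in a CUT&Tag experiment on primary neurons from the cortex and hippocampus of embryonic C57BL/6 mice. In CUT&Tag an antibody directs a transposase to a DNA-bound protein, and the fragments cut around it are sequenced. An ATF4 antibody was used for 1 library and IgG for the other, with about 100000 cells going into each, and neither the labels nor the methods state whether these neurons had received hemin. The peaks called in the ATF4 library are described here and the IgG library was not analysed, so no value has a replicate error and none can be read as enrichment over IgG.

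The genes are those protein-coding genes whose symbol begins with Kcn (potassium channels), Cacn (calcium channels) or Hcn (hyperpolarization-activated cation channels), or reads Scn with a number and a or b (sodium channels). 138 of the 21883 protein-coding genes placed on the 21 chromosomes by RefSeq (build GRCm38.p6) met this rule, of which 94 belong to the potassium, 26 to the calcium, 14 to the sodium and 4 to the HCN class. The name voltage-gated does not hold for every one of them. By family, 66 encode alpha subunits of voltage-gated channels, some of which are silent subunits that only modify others, and the other 72 encode inward rectifiers, two-pore, small- and intermediate-conductance calcium-activated or sodium-activated potassium channels and auxiliary subunits.

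Voltage-gated channels open or close as the membrane potential changes. Sodium channels start the action potential, calcium channels couple it to transmitter release and gene expression, potassium channels end it and set the interval to the next one, and HCN channels carry a current that opens on hyperpolarization and supports rhythmic firing. ATF4 is a transcription factor of the integrated stress response and is best known for genes of amino acid supply. Many channel genes have long introns. The median length of the 138 genes was 42.6 kb (range 1.45 to 1136 kb), against 17.2 kb for all protein-coding genes, so each was set against the 100 other protein-coding genes nearest to it in length.

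Across the channel genes, ATF4 peaks were about as dense as in other genes of the same length. 60 peaks had their summit inside a channel gene or within 1 kb of its ends, which is 0.341 summits per 100 kb (exact Poisson 95% interval 0.260 to 0.439, counting error only), and genes of similar length had 0.334 per 100 kb. The ratio of both was 1.02 (0.778 to 1.31). At least 1 summit was present in 41 of the 138 genes (29.7%, Clopper-Pearson 95% interval 22.2% to 38.1%), against 17.8% of all protein-coding genes and 29.6% of those of similar length. The channel genes thus stood above all genes and level with other genes of their length. 97 channel genes had no summit, 27 had 1, 9 had 2 and 5 had 3, and no summit was counted for more than 1 channel gene.

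**Figure D1:**
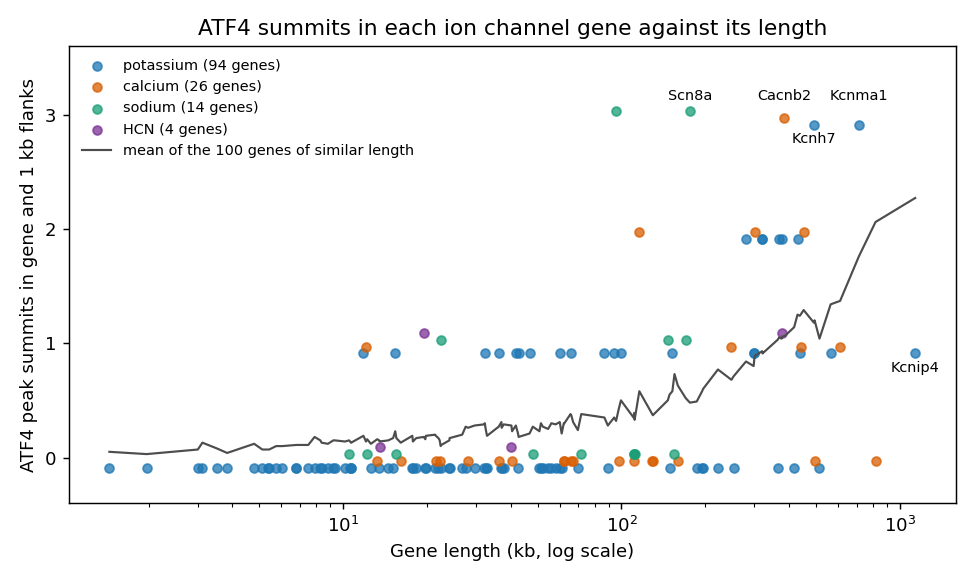
Each point is 1 of the 138 channel genes, with its length in kb on a log axis and the number of ATF4 summits in the gene and its 1 kb flanks on the vertical axis; colours give the class, with small vertical offsets so that points of different classes do not hide each other. The grey line is the mean number of summits in the 100 genes of similar length; Scn8a reaches 3 summits at 176 kb, while Kcnip4 holds 1 summit in 1136 kb.

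The share of genes with a summit was higher for longer genes, in the channel genes and in genes of similar length alike. Of the 27 channel genes over 200 kb, 20 had a summit (74.1%, against 65.2% of genes of similar length). Among the 72 channel genes under 50 kb, 10 had one (13.9%, against 15.4%). The density ratio was 1.09 (0.752 to 1.52) for the long and 0.826 (0.396 to 1.52) for the short genes.

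The classes differed in their density, but each interval included the level of genes of similar length. The potassium class held 36 summits in 26 of its 94 genes, or 0.331 per 100 kb against 0.340 in genes of similar length (ratio 0.975, 0.683 to 1.35). The calcium class held 13 summits in 8 of 26 genes, or 0.261 per 100 kb against 0.309 (ratio 0.843, 0.449 to 1.44). The sodium class had the highest density, with 9 summits in 5 of 14 genes, or 0.701 per 100 kb against 0.377 (ratio 1.86, 0.850 to 3.53). Without the member that held the most summits (the denser one among equals), 6 summits in 13 sodium genes gave a ratio of 1.33 (0.487 to 2.89). The HCN class held 2 summits in 2 of 4 genes, 1 of them in Hcn2 at 2.33 kb past the start, and the ratio of 1.21 has an interval of 0.146 to 4.36. By genes, 27.7% of the potassium, 30.8% of the calcium, 35.7% of the sodium and 50% of the HCN class held a summit. Genes of similar length gave 27.5%, 38.5%, 27.3% and 29.5%, each inside the interval of its class. The 66 genes for voltage-gated alpha subunits alone gave a ratio of 1.12 (0.779 to 1.56).

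**Figure D2:**
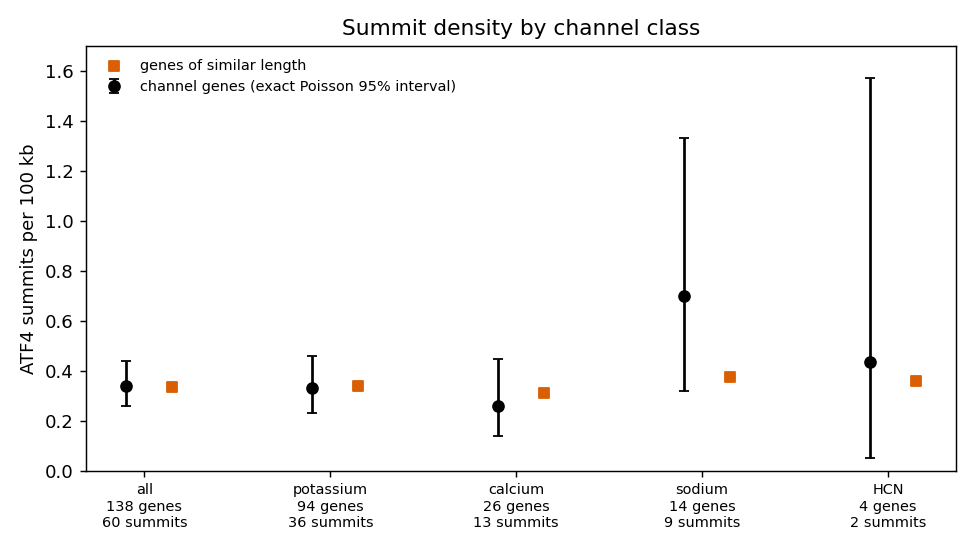
Black points are ATF4 summits per 100 kb of gene and flanks in all channel genes and in each class, with exact Poisson 95% intervals for counting error; orange squares are the densities in genes of similar length. The sodium class stands at 0.701 against 0.377, with an interval of 0.320 to 1.33.

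The peaks in channel genes were low. The number of fragments stacked at each summit was solved from the deposited fold enrichment and p-value. 36 of the 60 summits rested on 3 fragments (60.0%, interval 46.5% to 72.4%), 13 on 4 and 5 on 5. 6 summits had 6 or more fragments (10.0%, 3.76% to 20.5%), while 26.1% (24.5% to 27.8%) of the 2760 summits in the 8882 distinct genes of similar length and 24.3% of all 7873 peaks did so. Weighted by the lengths of the channel genes, 14.2 summits of 6 or more fragments would match genes of similar length (ratio 0.422, 0.155 to 0.919), and 44.6 of 3 to 5 fragments, where 54 were found (ratio 1.21, 0.909 to 1.58). By genes, 6 of 138 (4.35%) held a summit of 6 or more fragments, against 6.08% of all protein-coding genes and 9.2% of those of similar length. 22 of the 60 summits lay over a background within 2% of the lowest in the list, 0.0855 fragments, and these rested on 3 or 4 fragments. The median fold enrichment was 3.68 in channel genes (range 3.31 to 11.3) and 4.33 in genes of similar length.

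**Figure D3:**
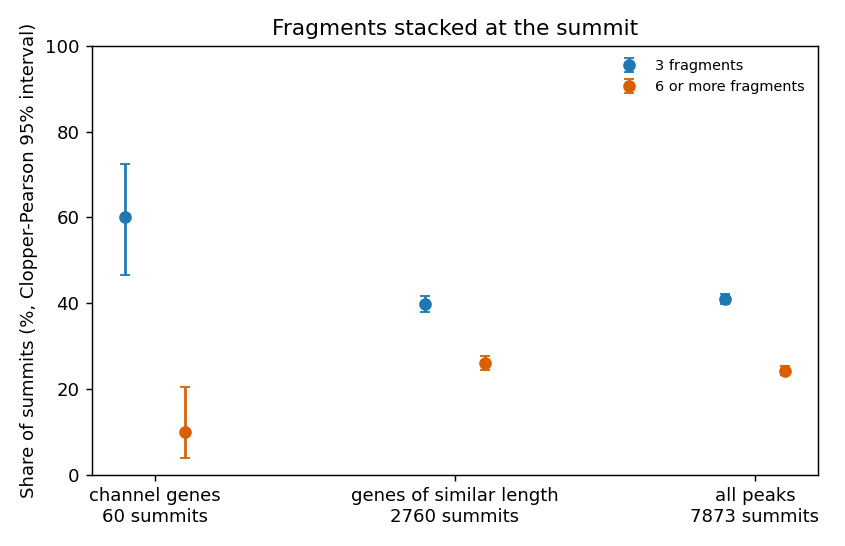
Points are the shares of summits, in %, that rest on 3 fragments (blue) or on 6 or more (orange) in channel genes, in genes of similar length and among all peaks, with Clopper-Pearson 95% intervals for counting error. The channel genes show 60.0% and 10.0%, and the genes of similar length 39.8% and 26.1%.

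No peak of 6 or more fragments lay within 1 kb of either end, 5′ or 3′, of a channel gene. Annotated start sites can also lie inside a gene. The tall peaks of Kcnj4 and Kcnk5 lay 2.32 kb and 1.92 kb past a start site. Heights by position were examined with the 1 kb window only. 6 of the 138 channel genes had a summit within 1 kb of an end (4.35%, interval 1.61% to 9.22%), against 8.13% of all protein-coding genes and 8.91% of those of similar length, values that both lie inside the interval. By summits of any height at the ends, the ratio to genes of similar length was 0.475 (0.174 to 1.03), which includes 1. None of those 6 summits had 6 or more fragments, against 5.65 such summits at the ends of genes of similar length when each channel gene is given the mean of its 100 (upper limit of the ratio 0.653). Farther than 1 kb from the ends, 6 of 54 summits in channel genes had 6 or more fragments (11.1%, 4.19% to 22.6%) and 19.0% did so in genes of similar length, a value inside that interval. With 1 library, neither difference could be set against the spread between replicates.

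The 6 genes with a summit at an end were Kcnip3, Kcnh7, Kcna4, Scn3b, Kcnq1 and Kcnab2. Kcnip3 encodes a calcium sensor that binds Kv4 channels and is also known as the transcriptional repressor DREAM. Its peak on chromosome 2 from 127521688 to 127521867 held 4 fragments (exact Poisson interval 1.09 to 10.2). The enrichment was 3.62-fold (q = 0.0289). The summit lay 316 bp inside the gene from the first start site. It also lay 386 bp upstream of a second annotated start. Kcnh7 encodes an ERG-type potassium channel. 1 of its 3 peaks, on chromosome 2 from 63184712 to 63184890, lay 514 bp upstream of the start with 3 fragments (0.619 to 8.77), a fold of 3.36 and q = 0.0289. Kcna4 encodes Kv1.4, which gives a fast inactivating current. Its peak on chromosome 2 from 107291271 to 107291448 lay 771 bp past the start, with 3 fragments, a fold of 3.31 and q = 0.0386. These 3 were the peaks within 1 kb of a start site of the same gene among the 45 in genes whose start sites are in the RefSeq promoter table.

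The other 3 lay at a 3′ end or in genes whose start sites are not in that table. Scn3b, a beta subunit of sodium channels, had a peak of 3 fragments on chromosome 9 from 40269195 to 40269463 (fold 3.31, q = 0.0386) with its summit 15 bp outside an end of the gene. In Kcnab2, a beta subunit of Kv1 channels, the summit lay 672 bp from an end, 99.2% of the way from the start, so at the 3′ end (3 fragments, fold 3.46, q = 0.0151). Kcnq1 encodes a slow potassium channel of heart and epithelia, and its peak lay 326 bp outside an end, on chromosome 7 from 143106549 to 143106724 (3 fragments, fold 3.68, q = 0.00372). Scn3b and Kcnq1 are not in that promoter table, and no strand was at hand for Scn3b. The RNA Kcnq1ot1, antisense to Kcnq1, is on the minus strand, so Kcnq1 is on the plus strand. Its peak, outside the end with the lower coordinate, thus lay just before the 5′ end of the gene.

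Kcnq1 had a second summit of 3 fragments deep inside the gene, on chromosome 7 from 143296344 to 143296527 (fold 3.51, q = 0.0105). It lay 111 bp past the start of Kcnq1ot1, a long non-coding RNA transcribed antisense to Kcnq1 from an imprinting control region. This was the only one of the 60 peaks that overlapped a start window of the promoter table (250 bases before to 50 after a start), by 30 bases.

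The bases before the start sites next to these peaks are given below in the direction of transcription, from RefSeq, build GRCm38.p6. They are shown because these starts, of channel genes or of the antisense RNA within Kcnq1, lay within 1 kb of an ATF4 summit. The second start of Kcnip3, 386 bp from the same summit, also did so, and its window is not printed. The 3 stretches of 250 bases end at the base before the start site. The window of Kcnq1ot1 has 300 bases, and its capitals mark the 30 bases that lie in the peak. They are Kcnip3 (minus strand, chr2:127522095-127522344), Kcnh7 (minus strand, chr2:63184288-63184537), Kcna4 (plus strand, chr2:107290339-107290588) and Kcnq1ot1 (minus strand, chr7:143296498-143296797).
Kcnip3: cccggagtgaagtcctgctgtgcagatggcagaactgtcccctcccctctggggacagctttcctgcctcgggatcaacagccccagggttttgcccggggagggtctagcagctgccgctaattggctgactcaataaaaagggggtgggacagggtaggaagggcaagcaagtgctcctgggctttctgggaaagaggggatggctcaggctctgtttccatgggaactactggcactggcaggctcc
Kcnh7: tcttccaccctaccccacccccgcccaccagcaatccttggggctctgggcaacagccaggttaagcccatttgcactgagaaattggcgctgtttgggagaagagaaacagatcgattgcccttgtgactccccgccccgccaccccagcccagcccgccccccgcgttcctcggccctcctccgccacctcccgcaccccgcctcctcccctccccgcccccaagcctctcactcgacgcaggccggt
Kcna4: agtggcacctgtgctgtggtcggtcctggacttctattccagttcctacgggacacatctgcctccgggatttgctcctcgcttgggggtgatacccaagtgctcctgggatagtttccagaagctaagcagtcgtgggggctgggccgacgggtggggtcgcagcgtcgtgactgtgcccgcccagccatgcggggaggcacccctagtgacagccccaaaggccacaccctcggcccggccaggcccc
Kcnq1ot1: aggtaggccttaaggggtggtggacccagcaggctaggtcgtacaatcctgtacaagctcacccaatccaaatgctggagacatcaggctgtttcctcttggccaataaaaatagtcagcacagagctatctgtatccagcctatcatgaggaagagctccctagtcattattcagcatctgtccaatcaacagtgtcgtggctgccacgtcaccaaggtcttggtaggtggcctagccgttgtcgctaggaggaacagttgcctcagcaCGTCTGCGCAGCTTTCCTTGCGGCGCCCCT

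None of these 4 windows held TGATGNAA, the core of the C/EBP-ATF response element bound by ATF4 dimers, or TGACGTCA, the cAMP response element, on either strand. The window of the second Kcnip3 start held neither. 101 of the 138 genes had a start window in the table, 137 windows in all. TGATGNAA was found in 5 of them (3.65%), in Kcnab1, Cacna1c, Scn9a, Hcn4 and Kcne2, against 3.97% of all 32851 windows. TGACGTCA was found in 0 of the 137, against 2.23% of the windows of protein-coding genes and 1.79% of all windows. These letters describe the windows only, since no channel peak except the one at Kcnq1ot1 overlapped one.

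None of the 6 peaks with 6 or more fragments lay within 1 kb of a gene end. The highest was in Kcnj4, which encodes the inward rectifier Kir2.3, on chromosome 15 from 79502700 to 79503238. It was 539 bp wide, against a median of 189 bp for the 60 peaks, and held 15 fragments (8.40 to 24.7), an 11.3-fold enrichment with q = 1.53e-15. Its summit lay 2.32 kb past the start site that the promoter table gives for the gene. 25 of the 100 genes of similar length held at least 1 summit as well. The second was in Kcnab1, a further beta subunit of Kv1 channels, on chromosome 3 from 65260927 to 65261157, with 12 fragments (6.20 to 21.0), a fold of 10.8 and q = 9.95e-15. It lay 73.0 kb past the nearest of 3 annotated starts of the gene. The intervals of these peaks overlap, so they cannot be ranked by fragments at this depth.

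The start windows of Kcnj4 and Kcnab1 are shown because these genes carry the tallest peaks. For Kcnab1 the window with the motif was taken (the second of its 3 starts, 152 kb upstream of the peak), and the capitals mark the match TGATGGAA, which begins 49 bases before the start site. They are Kcnj4 (minus strand, chr15:79505242-79505491) and Kcnab1 (plus strand, chr3:65108764-65109013).
Kcnj4: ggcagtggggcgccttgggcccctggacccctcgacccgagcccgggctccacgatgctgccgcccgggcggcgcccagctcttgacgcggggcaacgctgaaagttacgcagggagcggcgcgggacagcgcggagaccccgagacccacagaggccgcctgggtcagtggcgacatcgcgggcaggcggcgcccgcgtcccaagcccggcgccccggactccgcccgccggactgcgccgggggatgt
Kcnab1: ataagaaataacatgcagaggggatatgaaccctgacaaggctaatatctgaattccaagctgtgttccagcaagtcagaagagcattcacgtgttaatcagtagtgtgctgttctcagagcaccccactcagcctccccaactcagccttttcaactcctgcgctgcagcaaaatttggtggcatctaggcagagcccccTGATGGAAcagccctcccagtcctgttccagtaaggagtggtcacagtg

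4 more genes had a peak of 6 or 7 fragments. Cacnb2, a beta subunit that carries calcium channels to the membrane, had 1 of 7 fragments (2.81 to 14.4, fold 7.03, q = 5.55e-08). Kcnt2, a sodium-activated potassium channel, had 1 of 6 (fold 6.34, q = 3.39e-07), Kcnk5, an acid-sensitive two-pore channel, 1 of 6 (fold 6.24, q = 8.65e-07) and Kcnq5, an M-current channel, 1 of 6 (fold 6.15, q = 1.88e-06). Of these 4 summits, that in Kcnk5 lay 1.92 kb from a start site of its gene and the others at least 65.5 kb.

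In the sodium class, Scn8a, which encodes the channel Nav1.6 of the axon initial segment, held 3 summits, of 4, 3 and 3 fragments, in 176 kb. 2 of its 100 genes of similar length had as many. Scn1a and Scn2a, the alpha subunits that prevail in inhibitory and in excitatory neurons, had 1 summit of 3 fragments each, 6.95 kb past the start in Scn1a and 2.19 kb upstream of an annotated start in Scn2a. None of the 9 summits of the class had 6 or more fragments. Scn3a, Scn4a, Scn9a, Scn10a and Scn11a, which encode further alpha subunits, had no summit.

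In the calcium class the pore-forming alpha1 genes held 5 summits, against 7.06 expected from genes of similar length (ratio 0.708, 0.230 to 1.65). These lay in 3 of 10 genes (30%), against 45.3% of genes of similar length. Cacna1a, the P/Q-type channel of presynaptic terminals, had 2, of 5 and 3 fragments (folds 5.15 and 3.68), 115 kb apart. The L-type channel genes Cacna1d and Cacna1c, whose calcium entry signals to the nucleus, had 2 summits (5 and 3 fragments) and 1 (3 fragments). Cacna1e, the R-type channel, had none in 494 kb, while 67 of its 100 genes of similar length had at least 1. Among the auxiliary subunits, Cacnb2 held 3 summits in 385 kb, of 7, 5 and 3 fragments, and 10 of 100 genes of similar length had as many. Cacna2d4, an alpha2delta subunit known from the retina, had 2 in 116 kb, of 4 and 3 fragments, which 12 of 100 matched or exceeded. Cacna2d1, Cacnb4 and Cacng6 had 1 each, and that in Cacna2d1 (4 fragments, fold 4.26) lay 448 bp past the start of another annotated gene, Gm43000. None of the 26 calcium channel genes had a summit within 1 kb of an end (Clopper-Pearson upper limit 13.2%), against 8.38% of genes of similar length.

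In the potassium class the ether-a-go-go family (Kcnh), which sets resting excitability and repolarization, held 9 summits. That is 0.569 per 100 kb against 0.307 in genes of similar length (ratio 1.85, 0.846 to 3.51). They lay in 4 of 8 genes (50%), against 40% of genes of similar length. Kcnh7 had 3, all of 3 fragments, and Kcnh1, Kcnh5 and Kcnh8 had 2 each, of 3 or 4 fragments with folds from 3.57 to 4.60. For each of the 4, between 13 and 29 of its 100 genes of similar length had at least as many. Kcnma1, the large-conductance channel opened by calcium and voltage, had 3 summits in 713 kb, of 4, 3 and 3 fragments, the nearest of them 134 kb past the start, and 23 of 100 had as many. The 2 summits of Kcnt2 (6 and 3 fragments) were the closest pair in any channel gene, 6.79 kb apart. The other potassium channel families, like Kcnh, had ratios whose intervals included 1. The 15 inward rectifier genes held 3 summits, in Kcnj4, Kcnj15 and Kcnj16 (ratio 0.838, 0.173 to 2.45), and the 14 two-pore genes, which carry resting leak currents, 3 in Kcnk5, Kcnk9 and Kcnk13 (ratio 0.795, 0.164 to 2.32). The 17 auxiliary genes held 6, in Kcnab1, Kcnab2, Kcnip3, Kcnip4 and Kcnmb2 (ratio 0.763, 0.280 to 1.66). The 5 Kcnq genes held 4, in Kcnq1, Kcnq3 and Kcnq5 (ratio 1.06, 0.289 to 2.72). Of the 8 Kcna genes, which shape the action potential in axons, Kcna4 alone had a summit (12.5%, against 12.4% of genes of similar length). The delayed rectifier gene Kcnb2, the silent subunit gene Kcng4, and the calcium-activated Kcnn3 and Kcnn4 had 1 summit each. The summit in Kcnb2 also lay in an overlapping gene model, Gm51415. Kcnip4, a Kv4 partner and the longest channel gene at 1136 kb, had 1 summit, while genes of similar length had a mean of 2.27.

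**Figure D4:**
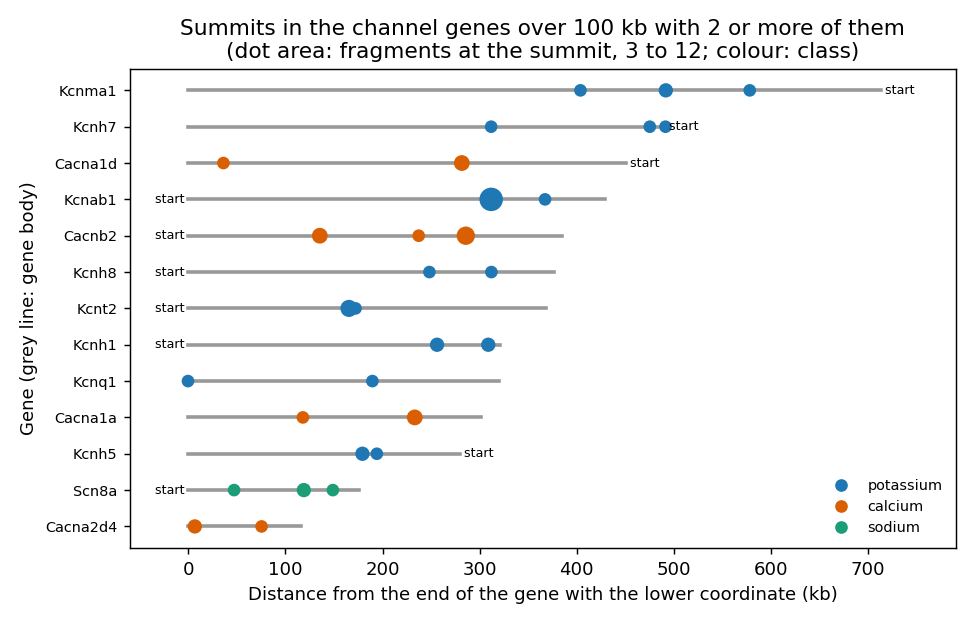
Grey lines are the bodies of the 13 channel genes over 100 kb with 2 or more summits, drawn in kb from the end with the lower coordinate, with the 5′ end marked as start where the promoter table gives a strand; dots are summits, coloured by class, with an area in proportion to fragments. The summits lie apart along the gene bodies, from 6.79 kb in Kcnt2 to 246 kb in Cacna1d for genes with 2, and those of Kcnh7 include 1 just outside the start.

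7 channel genes over 200 kb had no summit. They were Kcnd2 and Kcnd3, which encode the A-type channels Kv4.2 and Kv4.3, their partner Kcnip1, the G protein-gated inward rectifier gene Kcnj6, the small-conductance channel gene Kcnn2, and the calcium channel genes Cacna1e and Cacna2d3. Between 49 and 87 of their 100 genes of similar length had at least 1. The largest gap was in Cacna2d3, with 0 summits in 818 kb against a mean of 2.06.

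The summits were spread along the gene bodies. Of the 45 summits in genes with a known strand, 17 lay in the 5′ stretch or just before it, 17 in the middle and 11 in the 3′ stretch when each gene was divided into 3 equal stretches. 7 of the 45 lay in the first 10% of the gene or just before it. These counts were not set against genes of similar length. The median distance to the nearest annotated start of the same gene was 67.8 kb, 8 of the 45 lay within 3 kb of one and 27 lay more than 50 kb away.

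Genes whose products anchor, traffic or modify these channels, a list of 30, gave a similar picture. 15 of them held a summit (50%, against 17.8% of all protein-coding genes). These shares are not alike in length, as the median was 257 kb in the list and 17.2 kb over all protein-coding genes. The share of genes of similar length with a summit was not computed for this list. Their 37 summits compare with 31.8 expected from genes of similar length (ratio 1.16, 0.818 to 1.60). A summit within 1 kb of an end was present in 2 of 30 (6.67%), against 8.13% of all protein-coding genes. The genes with the most summits were Dlg2 (6, against 3.97 expected) and Cntnap2 (5, against 4.51), which cluster Kv1 channels, and Dpp10 (4, against 3.04), a Kv4 partner. Nfasc, which builds the axon initial segment, and Unc79, a partner of the sodium leak channel, had 3 each. As many were found in 1 of 100 genes of similar length for Nfasc and in 6 of 100 for Unc79.

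The assay does not measure expression, so the neuronal label could not be checked through it. A summit was present in 4 of 8 neuronal marker genes and in 3 of 12 glial and microglial ones, against 17.8% of all protein-coding genes. The neuronal list held 7 summits where 4.26 would match genes of similar length (ratio 1.64, 0.661 to 3.39), an interval that includes 1. The astrocyte markers held 2 summits against 0.710 (ratio 2.82, 0.341 to 10.2), the oligodendrocyte markers 1 against 0.831 and the microglial markers 0 against 0.690.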

How the data were processed

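1 peak list, from the ATF4 library, was analysed; it has no replicate. The submitters' processing notes name FastQC, BWA, MACS2 2.1.2, deepTools and build mm10; the calling threshold and the use of the IgG library are not given in the sources used here. The deposited peak list gives a fold enrichment over local background (a ratio), the -log10 p-value and -log10 q-value, a score (from the q-value) and the summit position.

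Each summit was assigned to every protein-coding gene of the RefSeq GRCm38.p6 table that it lay in or within 1 kb of. Density is summits per 100 kb of gene and flanks. Expected numbers apply the pooled density of the 100 other protein-coding genes nearest in log length to each channel gene. Fragments n and background were solved from fold = (n + 1)/(background + 1) and a Poisson tail, as MACS2 computes them, and met the -log10 p within 0.001 in all 7873 peaks; if single reads were called, they are reads. The total depth was not used here. Intervals (95%) cover counting error only, as PCR copies and neighbouring peaks are not independent. With 1 library no test was made.

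The members and lists were chosen with earlier results of these data known. Genes named are those with a summit at an end, the 10 with most summits, the 10 densest with at least 2, the gene of the tallest peak, those over 200 kb without a summit, and the 5 related genes with most summits; other channel genes were named after their values were seen. A few of the genes are not reported here by name. Exons, introns and peak sequences were not analysed here. The splitting of peak heights by position was chosen after its values were seen. Scripts were tested on simulated data and run in Python 3.11.15 (pandas 2.3.3, scipy 1.17.1, numpy 2.4.6; figures with matplotlib 3.10.9).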

Additional observations from a re-analysis of the deposited data

How the results depend on the processing

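Of 60 recomputed values under other settings, 45 moved by less than their counting interval or, for counts, less than 1.5 times, and 15 moved by more. The ratio of all channel genes to genes of similar length, 1.02, ran from 0.974 to 1.12 in the 9 settings without a limit on low peaks. It fell to 0.422 with at least 6 fragments and to 0.583 with a -log10 q of at least 5, each with 6 summits. With at least 6 fragments the ratio was 0.548 for potassium, 0.292 for calcium and 0 for sodium genes; with the q-value limit it was 0.399 for calcium and 0 for sodium genes. The potassium ratio with the q-value limit, 0.746, stayed within its interval.

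The number of channel genes with a summit, 41, was 6 of 138 under either limit (interval 1.61% to 9.22%). Of genes of similar length, 9.20% had one with at least 6 fragments and 6.94% with the q-value limit. Among the 66 alpha subunit genes 21 had a summit (31.8%), against 32.7% of genes of similar length. These counts are lower because fewer peaks or genes entered. The 6 genes with a summit near an end became 0 under either limit (upper limit 2.64%). Genes of similar length gave 4.03% with at least 6 fragments and 2.93% with the q-value limit. Among the alpha subunit genes 3 had one (0.947% to 12.7%), against 8.68%. With a 500 bp window the count was 3 (0.451% to 6.22%), against 7.05%, and with a 3 kb window 13. For 13 of 138 genes with 3 kb, the interval of the share was 5.11% to 15.6%, and 12.2% of genes of similar length had such a summit. No paired analysis was possible because 1 library was analysed. A peak of 3 fragments has a counting interval of 0.619 to 8.77, so most channel peaks could not be ranked.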
